A study of Mus musculus with 3 samples.

Results

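A set of 9 acute-phase probe sets, which read 8 genes, were followed in the livers of female BALB/c mice: Saa1, Saa2, Saa3, Saa4, Lcn2, Orm1, Orm2 and Hp. They were chosen by probe set ID among the 19824 non-control probe sets (10526 named genes) of a table of log2 ratios, and all 9 had a value on all 3 arrays, so none was lost to a filter on low values. The groups were young control (10 weeks old, normal food), old control (50 weeks old, normal food) and old Chlorella (50 weeks old, food with 2.0% powder of the green alga Chlorella). Each group is 1 array hybridized with RNA pooled from 6 mice, so no spread between animals or arrays can be given and no test was run. Age or diet cannot be told apart from the array itself. The series title speaks of mice sensitized to ovalbumin, whereas the sample labels mention no sensitization.

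Acute-phase proteins are plasma proteins, made mainly by hepatocytes, whose levels in blood change during infection, injury or inflammation. Among those that increase, interleukin-6 raises the transcription of many through STAT3, while interleukin-1 and tumour necrosis factor act through NF-kB. Factors of the C/EBP family bind many acute-phase promoters. In the mouse, Saa1 and Saa2 encode the inducible serum amyloid A proteins carried on high-density lipoprotein. Saa3 encodes a form also made by macrophages and fat cells, and Saa4 a form made constitutively in liver. Lcn2 encodes lipocalin 2, which withholds iron from bacteria by binding their siderophores. Orm1 and Orm2 encode orosomucoids, which bind lipids and drugs, and Hp encodes haptoglobin, which captures free haemoglobin.

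The genes differ in how well the array can separate them. Saa1 and Saa2 are close copies, and RefSeq lists the name of each as a synonym of the other. The shared probe set is named Saa1 in the platform annotation, but its source transcript belongs to Saa2 in RefSeq, and the ending _s_at of its ID marks probes shared by several transcripts. For the probe set named Saa2 the ending _x_at marks probes that may bind other transcripts, whereas the other Saa1 probe set rests on a Saa1 transcript. Values of the 3 probe sets are therefore given as readings of the Saa1 and Saa2 pair, whose members cannot be told apart with certainty. Along mouse chromosome 7 the order is Saa3, Saa4, the pseudogene Saa-ps, Saa1 and Saa2, with 1 long non-coding RNA gene between Saa3 and Saa4. The promoters of this cluster and of Lcn2 are printed because its genes gave the widest contrast with age, and Lcn2 the largest difference with diet. Each line gives the 250 bases before the transcript start from RefSeq (GRCm38.p6), 5′ to 3′ on the strand of the gene, and capitals mark matches to TTGCNNAA on either strand, a form of the C/EBP site.
Saa1 (chr7:46742981-46743230, minus strand): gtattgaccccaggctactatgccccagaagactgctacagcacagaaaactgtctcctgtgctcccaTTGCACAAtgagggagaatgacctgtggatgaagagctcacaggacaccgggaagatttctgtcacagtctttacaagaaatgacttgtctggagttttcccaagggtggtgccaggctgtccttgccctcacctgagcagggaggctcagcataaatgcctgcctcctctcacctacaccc
Saa2 (chr7:46751583-46751832, plus strand): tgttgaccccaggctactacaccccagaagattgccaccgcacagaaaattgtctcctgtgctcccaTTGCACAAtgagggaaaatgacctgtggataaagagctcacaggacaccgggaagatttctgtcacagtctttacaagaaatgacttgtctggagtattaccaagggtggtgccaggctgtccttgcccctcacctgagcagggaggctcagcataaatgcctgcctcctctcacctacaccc
Saa3 (chr7:46715677-46715926, minus strand): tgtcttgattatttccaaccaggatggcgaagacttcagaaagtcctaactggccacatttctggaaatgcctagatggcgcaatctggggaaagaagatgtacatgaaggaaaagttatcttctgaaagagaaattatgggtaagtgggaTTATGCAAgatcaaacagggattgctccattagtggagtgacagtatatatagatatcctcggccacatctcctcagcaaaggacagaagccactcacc
Saa4 (chr7:46732604-46732853, minus strand): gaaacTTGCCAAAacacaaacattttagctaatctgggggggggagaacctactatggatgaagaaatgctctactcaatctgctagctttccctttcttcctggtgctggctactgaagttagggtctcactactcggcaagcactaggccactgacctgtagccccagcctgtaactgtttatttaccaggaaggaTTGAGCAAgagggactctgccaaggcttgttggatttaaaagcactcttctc
Lcn2 (chr2:32387740-32387989, minus strand): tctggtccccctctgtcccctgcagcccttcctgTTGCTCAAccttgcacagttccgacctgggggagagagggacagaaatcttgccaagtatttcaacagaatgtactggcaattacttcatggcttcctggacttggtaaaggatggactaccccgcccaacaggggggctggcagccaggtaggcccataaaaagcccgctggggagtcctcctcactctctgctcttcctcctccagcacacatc

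Promoter sequences were found for 6 of the 8 genes. The windows of Saa1 and Saa2 matched at 238 of 251 aligned positions (94.8%), while those of Saa1 and Saa3 matched at 48.5% and those of Saa1 and Saa4 at 46.3%. A match to TTGCNNAA stood in all 6 windows, Orm2 included, against 9.56% of 32851 such windows of mouse genes. In Saa1 it lay 182 to 175 bases before the start and in Saa2 183 to 176, with the same bases (TTGCACAA). Saa3 held it 99 to 92 bases before the start. Saa4 held 2 matches, 245 to 238 and 52 to 45 bases before the start. Neither TTCNNNGAA, a STAT3 form, nor the NF-kB consensus was found in the 6 windows on either strand, against 7.02% and 7.25% of all windows. Genes that were higher and genes that were lower in old control thus both held the C/EBP form.

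The first comparison asked how the acute-phase transcripts of old control differed from those of young control. The inducible serum amyloid A genes were about 3-fold higher in old control, Saa3 was less than 2-fold higher, and Saa4, Lcn2, Orm2 and Hp were lower. Of the 9 probe sets, 3 passed 2-fold upward and 1 downward, where 9.55% and 8.80% of all 16667 probe sets with both values did, 18.3% together. All 3 upward read the Saa1 and Saa2 pair, so they do not count as 3 separate genes. Any increase was seen in 5 of 9, against 44.1% of all probe sets. The median age difference over the 9 was 0.39 (log2), beside -0.11 over all probe sets, but it joins values from -1.20 to 1.81 and describes no common shift.

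For the shared Saa1 and Saa2 probe set the log2 ratio to the median of all samples was -1.053 in young control, 0.754 in old control and 0.893 in old Chlorella. For the Saa1 probe set 1450788_at it was -0.896, 0.670 and 1.161 in the same order. For the Saa2 probe set 1449326_x_at it was -0.836, 0.836 and 1.134. On all 3 probe sets young control was far below both old arrays and old Chlorella was the highest. In the same order the age difference was 1.81 (3.50-fold), 1.57 (2.96-fold) and 1.67 (3.19-fold). The spread of 0.24 (log2) between the largest and the smallest of them was small beside the difference itself, although the 3 share sequence and the same arrays. Over 7 other scalings of the arrays these values kept their sign and ranged from 1.06 to 1.88, from 0.82 to 1.64 and from 0.92 to 1.90. Of these 7, 1 takes the deposited log2 levels and gave the same differences as the ratios, to within 0.001 (log2), so it adds no check. With the poly-A controls at 0, 1450788_at (0.82) and 1449326_x_at (0.92) were under 2-fold and the shared probe set (1.06) was not. These bacterial RNAs, meant to be added before labelling, were a median of 0.75 (log2) higher on the old control array, and the hybridization controls, meant to be added later, 0.46.

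Saa3 (1450826_a_at), the form also made by macrophages and fat cells, had log2 ratios of -0.857 in young control, -0.002 in old control and 0.311 in old Chlorella. Young control was again the lowest, but the step to old control was smaller, 0.85 (1.81-fold), with a range of 0.10 to 1.15 over the other scalings. Saa4 (1419318_at), which lies between Saa3 and Saa1, ran the other way, with 0.205, -0.302 and -0.181. Young control was here the highest, and old control differed from it by -0.51 (log2; 1.42-fold lower). A further Saa4 probe set, not among the 9, gave -1.11 (2.16-fold), so the probe sets of Saa4 shared a direction but only 1 passed 2-fold. Saa4 was lower in old control under all 7 other scalings, from -1.26 to -0.43. The serum amyloid A cluster thus held the largest increases among the 9 probe sets beside a decrease, a contrast within 1 array pair that a common shift of the arrays leaves as it is.

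**Figure D1:**
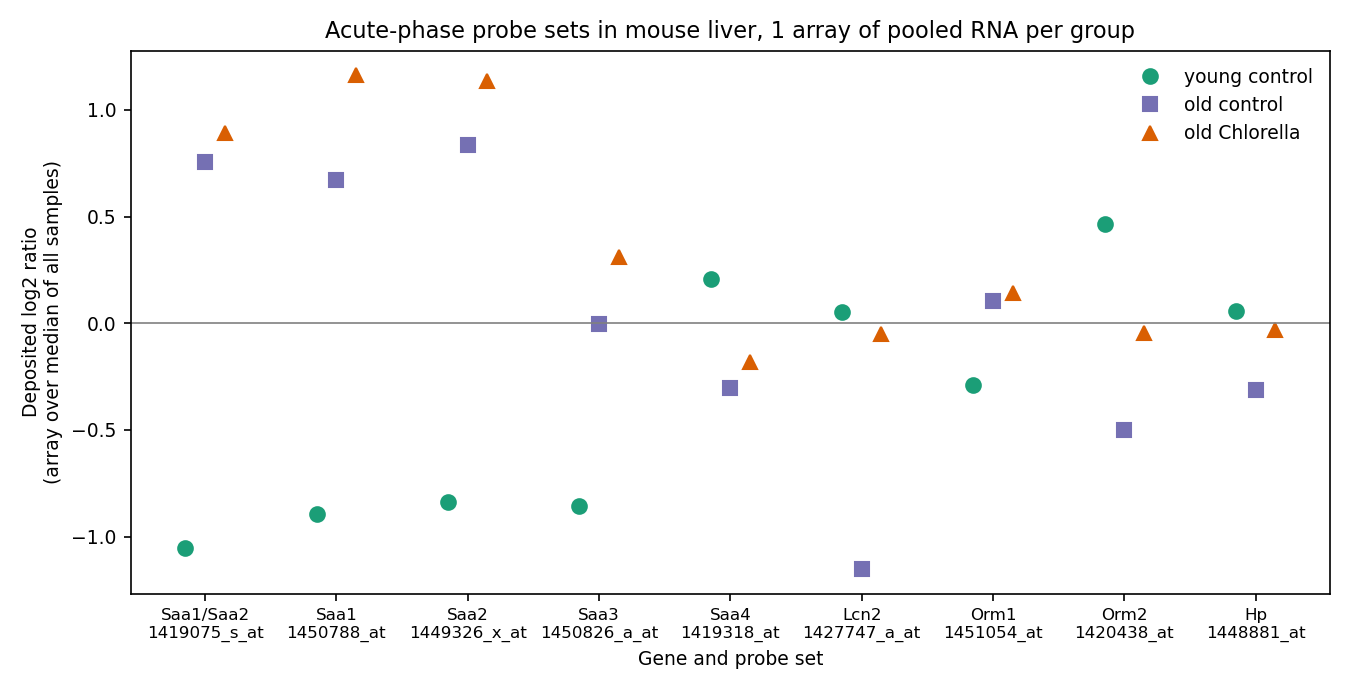
Deposited log2 ratio to the median of all samples (vertical axis) of the 9 acute-phase probe sets (horizontal axis), with 1 point per array per group of mice. Young control is lowest for the Saa1, Saa2, Saa3 and Orm1 probe sets, with -1.053 for the shared probe set, and old control is lowest for Saa4, Lcn2, Orm2 and Hp, with -1.151 for Lcn2.

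Lcn2 (1427747_a_at) had log2 ratios of 0.051 in young control, -1.151 in old control and -0.051 in old Chlorella. Old control stood apart, with a difference of -1.20 (log2), or 2.30-fold lower than young control. With a centring that depends on the level, described below, the difference was -0.92 and no longer 2-fold, while the other scalings gave values down to -1.95. Orm2 (1420438_at) was at 0.464, -0.498 and -0.045, again lowest in old control, with an age difference of -0.96 (1.95-fold lower). It passed 2-fold under 3 of the 7 other scalings and was lower under all of them, between -1.71 and -0.67. Orm3, the third mouse orosomucoid gene, is listed only in the table of levels, where it was at 7.03, 6.02 and 6.57 (log2 level), a difference of -1.01.

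Hp (1448881_at) was at 0.059 in young control, -0.312 in old control and -0.031 in old Chlorella. Its age difference of -0.37 (1.29-fold) was small but kept its sign under the 7 other scalings, from -1.12 to -0.29. Orm1 (1451054_at) was at -0.288, 0.103 and 0.143, which makes it the one orosomucoid that was higher in old control, by 0.39 (1.31-fold). Its direction turned under 3 of the 7 other scalings, to as low as -0.36. No direction can therefore be given for Orm1.

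**Figure D2:**
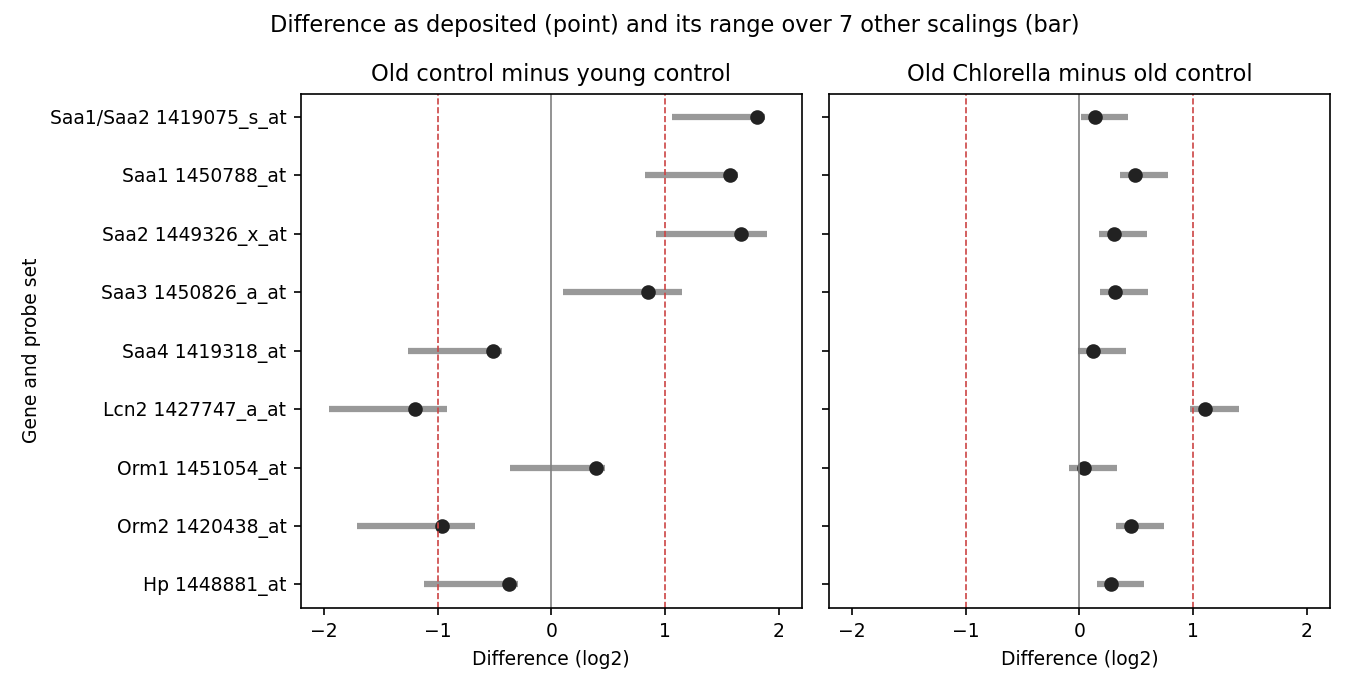
Difference in log2 ratio (horizontal axes) for each acute-phase probe set (vertical axis), old control minus young control on the left and old Chlorella minus old control on the right. Points are the deposited values, bars span the 7 other scalings and dashed lines mark 2-fold. By age the Saa1 and Saa2 bars lie wholly above 0 and the Lcn2 bar wholly below it, and by diet Lcn2 alone has its point beyond 2-fold, at 1.10.

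The age difference over all probe sets depended on the level, which bears on the genes with the strongest signals. Among the 551 probe sets with a mean log2 level of 14 or more on the 2 arrays the median age difference was 0.55, whereas it was -0.26 among the 6521 between 8 and 10. Probe sets close in level to Orm1 had a median of 0.72 and those close to Hp 0.60, so relative to these the age difference was -0.33 for Orm1 and -0.97 for Hp. Those close to Lcn2 had -0.28 and those close to Saa3 -0.29, which left -0.92 for Lcn2 and 1.15 for Saa3. The probe sets of the Saa1 and Saa2 pair stayed at 1.48 to 1.90. By this centring 4 of the 9 passed 2-fold upward in old control and none downward, against 3 and 1 in the deposited values, 3 and 2 with the hybridization controls at 0, and 1 and 4 with the poly-A controls at 0. Over all 16667 probe sets the counts past 2-fold were 1591 higher and 1467 lower as deposited, 1717 and 996 by the level-dependent centring (16.3% together), 727 and 3967 with the hybridization controls (28.2%), and 355 and 7097 with the poly-A controls (44.7%). With equal medians of the table of levels, 3 of the 9 passed 2-fold upward and 2 downward, where 38.9% of 45037 probe sets passed it.

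**Figure D3:**
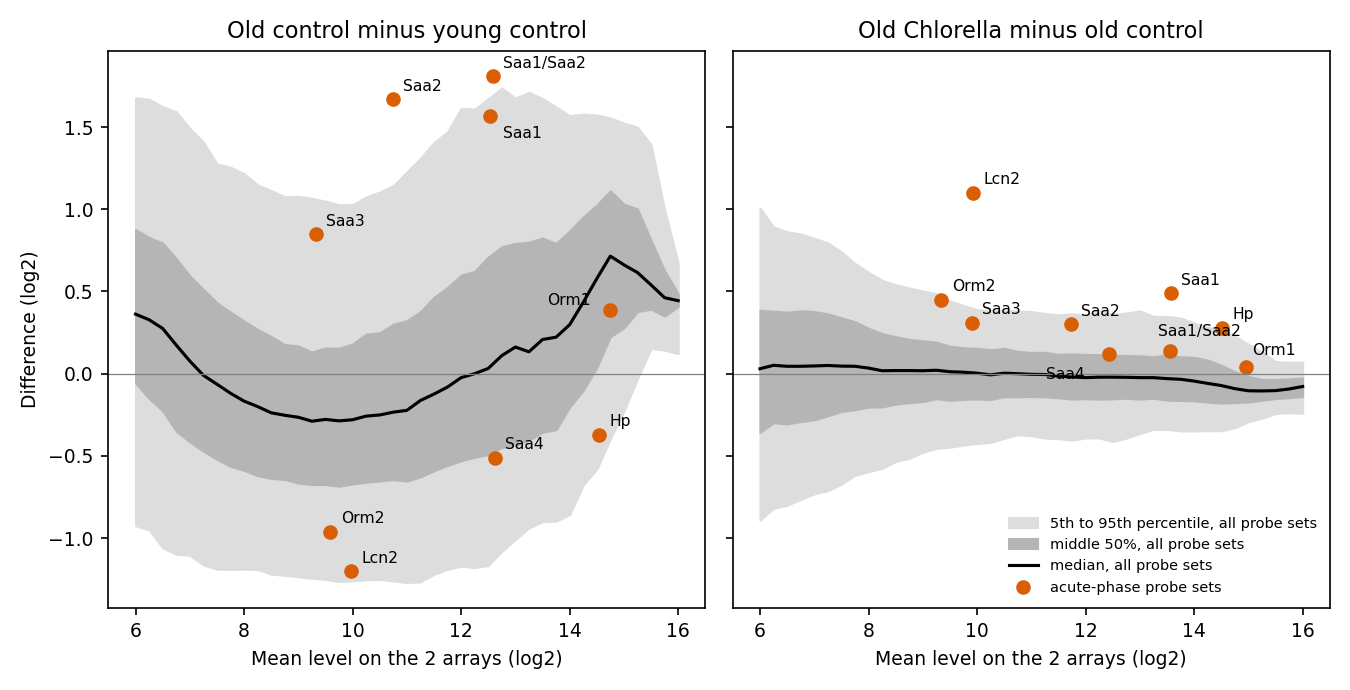
Difference in log2 ratio (vertical axis) against the mean log2 level on the 2 arrays compared (horizontal axes), by age on the left and by diet on the right. Points are the 9 acute-phase probe sets, the line is the median of all probe sets within 0.5 of each level, and the grey bands are their middle 50% and 5th to 95th percentile. The age median bends with the level, from -0.26 between 8 and 10 to 0.55 from 14 upward, while the diet median stays near 0 and the 9 points lie above it.

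The second comparison asked how mice of 50 weeks differed when Chlorella was fed. All 9 acute-phase probe sets exceeded their old control value in old Chlorella, where 50.4% of all 16524 probe sets were, but by small amounts: the median was 0.30 (log2), beside 0.00 over all probe sets. Lcn2 was the one probe set past 2-fold, at 1.10 (2.14-fold). Its value in old Chlorella then differed from that in young control by -0.10, but by -0.34 with the hybridization controls at 0, -0.48 with equal medians of the table of levels and -0.56 with the poly-A controls at 0. Of all probe sets, 0.841% passed 2-fold upward and 0.678% downward, 1.52% together. The old control array alone sets how low Lcn2 was in both comparisons, which share it. Under the other scalings the Lcn2 difference ranged from 0.97 to 1.40.

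Among the other members, the Saa1 probe set was 0.49 higher (1.41-fold), Orm2 0.45 (1.37-fold), Saa3 0.31 (1.24-fold), Saa2 0.30 (1.23-fold) and Hp 0.28 (1.22-fold). These were higher in old Chlorella under all 7 other scalings, with a lowest value of 0.15 for Hp. The shared Saa1 and Saa2 probe set differed by 0.14, so the readings of this pair spanned 0.35 (log2), as much as their differences themselves. Saa4 differed by 0.12 and Orm1 by 0.04, and both turned to -0.01 and -0.09 when the medians of all probe sets in the table of levels were made equal. With that scaling 7 of 9 were higher and none passed 2-fold, where 27.1% of 45037 probe sets did (6394 higher and 5819 lower). Hybridization and poly-A controls were a median of 0.14 and 0.32 lower on the old Chlorella array, so scaling to them raises every diet difference.

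The third comparison set old Chlorella against young control, with age and diet both changed. It shares an array with each of the other comparisons, and its values follow from theirs. The Saa1 and Saa2 probe sets were higher in old Chlorella by 1.95 (3.85-fold) for the shared probe set, 2.06 (4.16-fold) for that of Saa1 and 1.97 (3.92-fold) for that of Saa2. Saa3 was 1.17 (2.25-fold) higher, and under 2-fold with both bacterial control scalings and with equal medians of the table of levels, where the lowest value was 0.71. In all, 4 of 9 passed 2-fold upward and none downward, against 8.32% and 6.87% of all 16572 probe sets (15.2% together). Of these 4, all but Saa3 read the Saa1 and Saa2 pair and are not separate genes. Any increase was seen in 5 of 9, against 45.4%. Lcn2 (-0.10), Hp (-0.09), Saa4 (-0.39) and Orm2 (-0.51) were lower than in young control by less than 2-fold, and Orm1 was 0.43 higher. Of these 5, Lcn2 and Orm1 changed sign under at least 1 other scaling.

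Among probe sets of further acute-phase genes, 9 of 27 were higher in old control, against 44.1% of all probe sets. Of 23 further positive acute-phase genes, 19 were on the array by the annotation, and 27 of their probe sets had values in young and old control. Of these, 6 were at least 2-fold lower in old control and 1 at least 2-fold higher, against 8.80% and 9.55% of all probe sets. The median age difference was -0.38 (-0.79 with level-dependent centring), beside -0.11 over all probe sets. Lower were Lrg1 (-1.21), a leucine-rich glycoprotein of plasma, Serpina3n (-1.21), a protease inhibitor, the metallothioneins Mt1 (-1.18) and Mt2 (-1.04), which bind zinc and copper, and Lbp (-1.17), which binds bacterial lipopolysaccharide. Ceruloplasmin (Cp), the copper-carrying ferroxidase, gave 7 of the 27 probe sets, so the counts are not of separate genes. Of these 7, 6 were lower in old control, from -1.03 to -0.16. The remaining one, the single increase past 2-fold of this list, was at 1.77. By diet none of 28 probe sets passed 2-fold, against 1.52% of all probe sets, and the median was 0.12. Lrg1 (0.87), Mt1 (0.86) and Mt2 (0.90) were higher in old Chlorella. Like Lcn2, these 3 genes had their lowest value in old control. In the deposited ratios they lay within 0.34 of young control in old Chlorella, and they share the old control array with Lcn2. The other probe sets at least 2-fold lower with age did not come as close. Serpina3n, Lbp and the Cp probe set at -1.03 differed by -0.02, 0.54 and 0.13 with diet. In old Chlorella they were still at -1.23, -0.63 and -0.90 against young control.

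Genes whose transcripts decrease in the acute phase had no direction that held across scalings. The 24 probe sets of 14 such genes had a median age difference of 0.28, or -0.30 with level-dependent centring. None was at least 2-fold higher and 3 were at least 2-fold lower, against 9.55% and 8.80% of all probe sets. The 3 were Fetub (-1.44), a protease inhibitor of the fetuin family, Serpina6 (-1.10), which carries corticosteroids in blood, and F12 (-1.05), coagulation factor XII. Albumin (Alb) was 0.47 higher in old control, a value below the 0.55 median of its level band. By diet none of the 24 passed 2-fold, against 1.52% of all probe sets, and their median was -0.06.

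Cytokines, receptors and transcription factors that act on acute-phase genes had 44 probe sets with both values. In old control 15 of them were at least 2-fold lower and 2 higher, against 8.80% and 9.55% of all probe sets. Their median was -0.76, or -0.60 with level-dependent centring. Hnf4a, Il6st, Cebpb and Stat3 each gave more than 1 of the 15. Cebpb, a C/EBP factor, was lowest at -2.41 (5.30-fold lower), and at -1.25 on its other probe set. The leukaemia inhibitory factor receptor Lifr followed at -1.85, but its other probe set with ratios was at -0.40. Next were the liver factor Hnf4a (-1.79 and -1.49) and the shared interleukin-6 family receptor chain Il6st (-1.56). Il1b, which encodes interleukin-1 beta, was the largest increase at 1.71 (3.26-fold), with log2 ratios of -1.439 (young control), 0.267 (old control) and 0.566 (old Chlorella). By diet none of 43 passed 2-fold, against 1.52% of all probe sets, with values from -0.67 to 0.83. Of the proteins that act with the members, Fpr2, a formyl peptide receptor that also binds serum amyloid A, was 1.79 higher in old control. Lrp1, listed with Fpr2, takes up haem bound to haemopexin, which is not among the members. Its age difference was 1.74 on 1 probe set, with low log2 levels of 5.96 in young control and 7.70 in old control. On the other, at 11.21 and 10.51, it was -0.70. The probe set for Il6 is listed in the table of levels alone, at 4.70, 5.47 and 4.22 (log2 level), below the median of that array's probe sets in all 3 groups.

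**Figure D4:**
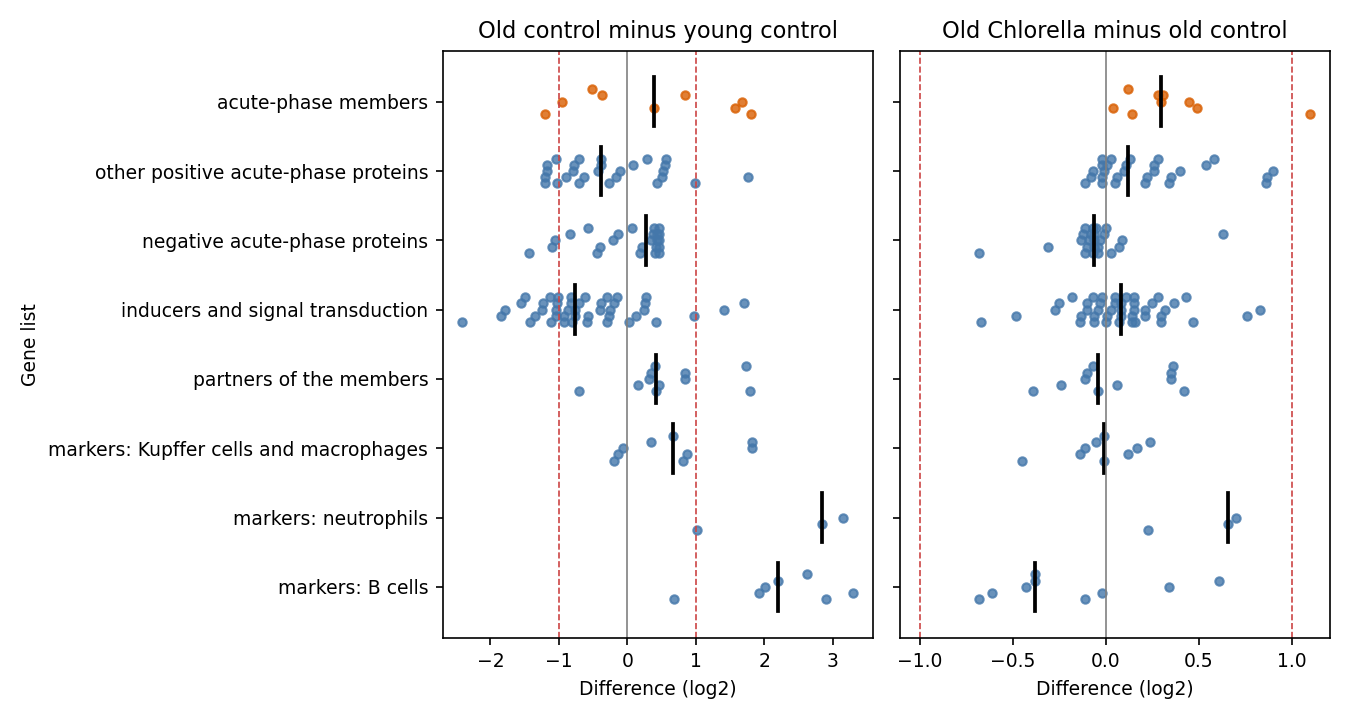
Difference in log2 ratio (horizontal axes) of each probe set in the gene lists (vertical axis), by age on the left and by diet on the right. Points are probe sets, black bars are list medians and dashed lines mark 2-fold. By age the 9 acute-phase members spread from -1.20 to 1.81 and the neutrophil markers have the highest list median, 2.85, whereas by diet Lcn2 alone among the points shown passes 2-fold, at 1.10.

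Cell types other than hepatocytes can make some of these transcripts, and their markers differed between the arrays in both directions. Hepatocyte markers were at a summed log2 level of 18.94 in young control, 19.30 in old control and 19.23 in old Chlorella over 15 probe sets of 6 genes, with albumin, transthyretin and apolipoprotein A-I all present. However, 4 of the 15, all of Hnf4a, were at least 2-fold lower in old control, against 8.80% of all probe sets. The median age difference of the 15 was 0.42, but -0.10 with level-dependent centring. Neutrophil markers, over 8 probe sets of 8 genes, were at 9.99, 12.72 and 13.40. S100a8 and S100a9, the genes of calprotectin, had the highest levels among them, with age differences of 3.15 and 2.85. The 3 neutrophil probe sets with ratios were all at least 2-fold higher in old control, against 9.55% of all probe sets. They were higher still, by 0.23 to 0.70, in old Chlorella. The other 5, for Camp, Ltf, Mpo, Elane and Mmp8, have no ratios. Their log2 levels were between 2.52 and 5.64 in young control and between 3.84 and 6.21 in old control, below the medians of all probe sets (6.07 and 6.33). In old Chlorella Camp was at 7.62, Ltf at 7.27 and Mpo at 6.47, above that array's median of 6.46, while Elane (5.78) and Mmp8 (3.23) were below it.

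Kupffer cell and macrophage markers were at a summed log2 level of 14.43, 15.45 and 15.44. Of 9 probe sets, 2, for Lyz2 and Vsig4, were at least 2-fold higher in old control and none at least 2-fold lower. Over all probe sets the shares were 9.55% and 8.80%. The 3 probe sets of Csf1r, the receptor that macrophages depend on, were at -0.20, -0.07 and -0.13 by age. B cell markers were at 11.77, 13.73 and 13.63, with 6 of 7 probe sets past 2-fold upward in old control. T cell markers were at 9.31, 9.86 and 10.03, stellate cell markers at 13.70, 14.43 and 14.36, endothelial markers at 11.84, 11.24 and 11.27, and adipocyte markers at 10.95, 11.52 and 11.21. By diet the median difference was -0.01 for the Kupffer cell and macrophage markers, -0.38 for the B cell markers and -0.32 for the adipocyte markers. No marker probe set was at 0 on any array. In pooled tissue more cells of a type and more RNA per cell cannot be told apart, and the part of these cells in the differences of Saa3, Lcn2 or the other members was not tested. The 5′ minus the 3′ age difference, a measure of RNA integrity and labelling, was -0.38 (log2) for beta-actin, -0.22 for Gapdh and -1.79 for pyruvate carboxylase. In old Chlorella against young control it was -0.40, -0.17 and -1.88, whereas by diet it was -0.02, 0.05 and -0.08. The part of RNA quality in the age differences of the members was not tested.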

How the data were processed

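Liver RNA was measured on 3 one-colour Affymetrix arrays, 1 per group. Per the file headers, the authors deposited log2 ratios of each array's normalized expression over the median of all samples, with 3 decimals. The other deposited table gives log2 levels of 45101 probe sets. Over 49937 pairs of values, differences between arrays in the 2 tables agree to within 0.001 (log2), which also ties each column of ratios to its sample. MAS5 is named in the submitters' processing notes. The scaling between arrays and the rule that left ratios empty were not given in the sources used here. Empty ratios belonged to weaker probe sets, with a median log2 level of 5.63 against 9.10 on the young control array.

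Differences of log2 ratios were taken between arrays over probe sets with both values, without the 58 manufacturer's controls, and counted at 2-fold. As groups hold 1 array each, no replicate error or p-value exists, and precision is limited by the number of arrays. The 7 other scalings were array medians at 0, quantile normalized ratios, hybridization controls at 0 (18 probe sets), poly-A controls at 0 (24), the log2 levels as deposited, these with equal array medians, and a centring on the running median of probe sets within 0.5 (log2) of the same mean level, which was added after seeing the data. Probe sets were named through the platform annotation where it gives 1 gene (34958 of 45101; 932 have several and 9211 none). The text names the 9 members, and from each further list at most 6 probe sets that differed by 2-fold, by size, and the marker genes named beside them. Albumin, Il6, Orm3 and the further probe sets of Cebpb, Cp, Lrp1, Saa4 and Csf1r were named outside this rule after their values were seen, as was the diet value of genes named for age. Members and lists were chosen with earlier results of these data known. Calculations used Python 3.11.15 with numpy 2.4.6, pandas 2.3.3 and Biopython 1.88, and were tested on simulated data. Promoter windows were aligned globally.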

Additional observations from a re-analysis of the deposited data

How the results depend on the processing

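No paired analysis was possible because each group is 1 array. The count of members past 2-fold by age was 4, and 2 at 3-fold, all but Lcn2 being readings of the Saa1 and Saa2 pair. By diet it was 1, and 0 at 3-fold or with equal medians of the log2 levels. The median age difference of the members, 0.39 (log2), was 0.47 with array medians at 0, 0.38 after quantile normalization, -0.01 with hybridization controls at 0, -0.36 with poly-A controls at 0, 0.14 with equal medians of the log2 levels, -0.33 with level-dependent centring and 0.01 without the shared Saa1 and Saa2 probe set. In the same order the median diet difference, 0.30, was 0.29, 0.42, 0.47, 0.59, 0.17, 0.32 and 0.31, and that of old Chlorella against young control, 0.43, was 0.50, 0.48, 0.19, -0.03, 0.05, 0.13 and 0.17. The log2 levels as deposited gave the same values as the ratios, and no member was under a signal of 100 on all arrays, so that filter removed none. The members that passed 2-fold kept their direction under all 7 other scalings in each comparison. The share of all probe sets past 2-fold by age, 18.3%, was 11.2% after quantile normalization, 44.7% with poly-A controls at 0 and 37.8% over all probe sets with log2 levels. By diet, 1.52%, it was 5.20%, 3.07% and 27.4%. The 37.8% and 27.4% count 45037 probe sets, among them the weaker ones without a ratio. For probe sets with ratios the log2 levels gave the same differences, to within 0.001 (log2). These shares thus differ from the deposited ones by the probe sets counted. The cause of the other shifts was not tested. Each value rests on 1 array per group, and signal over background was not analysed here.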
